A study of Mus musculus with 4 samples.

Results

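The genes described here were 38 mouse genes listed as imprinted, taken by symbol from a list whose rule used no measured value, although the list was drawn up with earlier results of these data known, out of 33565 genes in the count matrices. They were followed in 3 mouse cell lines that were profiled together by CapSeq, a split-pool single-cell RNA-seq method in which cells are held in semi-permeable capsules. Neuro-2a (N2a) cells come from a neuroblastoma, NIH/3T3 cells are embryonic fibroblasts, and the mouse embryonic stem cells (mESCs) were of the E14TG2a line. N2a and NIH/3T3 cells were grown in DMEM with 10% fetal bovine serum. The mESCs were grown on gelatin with 15% serum, leukemia inhibitory factor, 3 µM CHIR99021 (a GSK3 inhibitor) and 1 µM PD0325901 (a MEK inhibitor). No treatment was set against a control, and the contrast was the line itself. Each line was 1 sample spread over 32 first-round barcodes (BC1), which held cells of the same sample and were therefore not replicates. No difference between lines was tested, because there was no replicate of a line. Line and genotype cannot be told apart, and in contrasts of mESCs with the other lines neither can medium.

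An imprinted gene is transcribed mainly from the copy inherited from 1 parent. Methylation laid down in the germ line marks an imprinting control region on the copy from only 1 of the parents. Many such genes lie in clusters in which a long noncoding RNA from 1 parental chromosome sits beside protein-coding genes expressed from the other. They are known for roles in fetal growth, placenta and brain, and cultured stem cells and tumor lines are known to lose or change their expression. The matrices count molecules of a gene and carry no allele, so every level below is the sum of both copies.

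Cells with at least 1000 unique molecular identifiers (UMIs, each counting 1 captured molecule) and at most 20% mitochondrial UMIs were kept. This left 2323 N2a, 2037 NIH/3T3 and 2137 mESC cells with median depths of 6185, 4863 and 4803 UMIs, and 17955221, 11697865 and 12322098 UMIs in all. No barcode was shared between the lines, which follows from the split of the reads by BC1, and doublets were not called. Of 8 marker genes listed for each line, 7 of the N2a list, 6 of the NIH/3T3 list and 8 of the mESC list were highest in their own line. Gata3, of the N2a list, and Fn1, of the NIH/3T3 list, were higher in mESCs, and Postn, of the NIH/3T3 list, was at 0 in every line. Levels are UMIs of a gene in every 1000000 UMIs of a line's cells (CPM), which are not divided by gene length and are compared between lines only. Brackets give 95% exact intervals, which cover counting error only.

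Of the 38 imprinted genes, 22 reached 20 CPM in at least 1 line, 13 had some UMIs without reaching it, and 3 (Igf2, Mkrn3 and Peg13) were listed at 0 in every line. There were 18 genes at 20 CPM or more in N2a cells, 11 in NIH/3T3 cells and 20 in mESCs. The 38 genes together made up 4760 CPM in N2a cells, 1837 CPM in NIH/3T3 cells and 2556 CPM in mESCs. The median level of the 22 genes was 117 CPM in N2a cells, 12.1 CPM in NIH/3T3 cells and 63.3 CPM in mESCs. Over all 9522 genes that reached 20 CPM in a line, the medians were 48.1, 49.1 and 45.3 CPM.

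**Figure D1:**
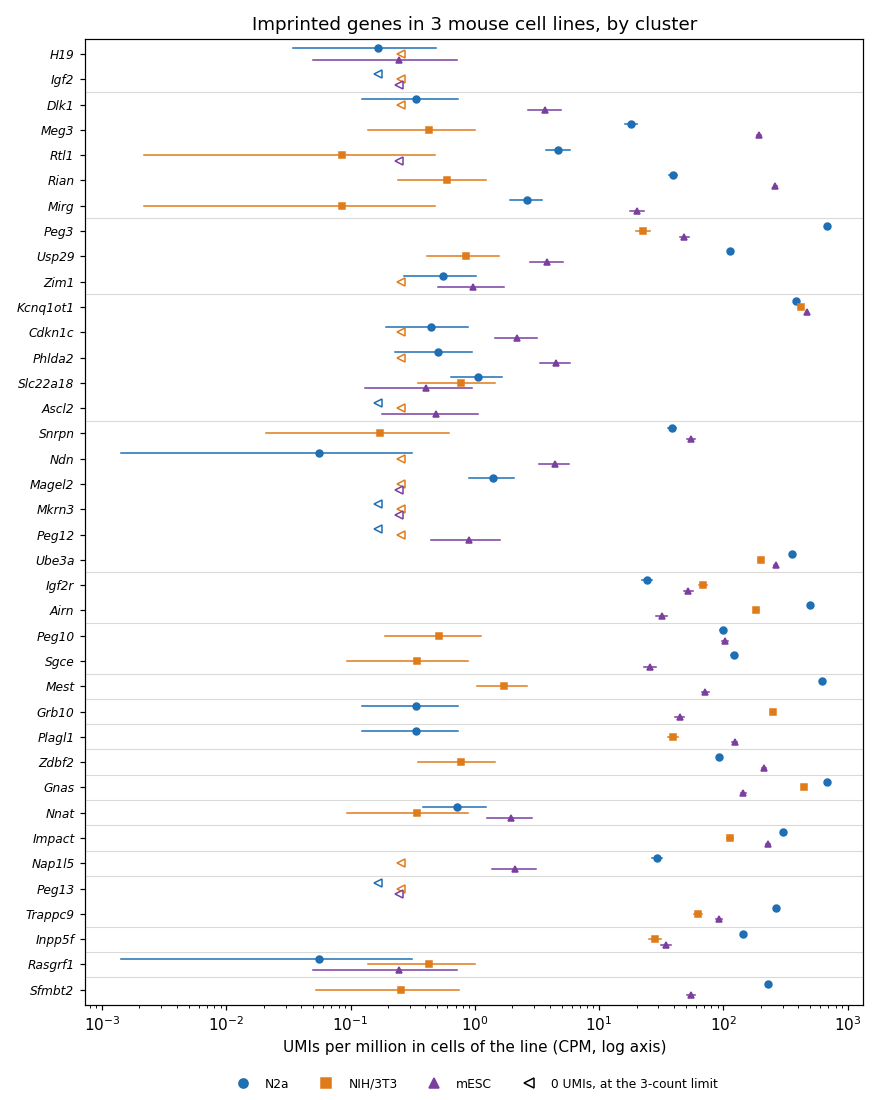
CPM (log axis) of each of the 38 imprinted genes in N2a (circles), NIH/3T3 (squares) and mESCs (triangles), grouped by cluster between the grey lines. Bars are 95% exact Poisson intervals and open markers stand for 0 UMIs, drawn at the limit that 3 counts give; Kcnq1ot1 sits between 381 and 470 CPM in the 3 lines, while Grb10 ranges from 0.334 to 248 CPM.

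The Dlk1-Meg3 cluster on chromosome 12 was highest in mESCs. Its maternally expressed noncoding RNAs are Meg3 (chr12:109506877-109538165, plus strand, GRCm39), Rian, which hosts small nucleolar RNAs, and Mirg, which hosts microRNAs. Meg3 was at 18.1 CPM [16.2, 20.2] in N2a cells, 0.427 CPM [0.139, 0.997] in NIH/3T3 cells and 194 CPM [186, 202] in mESCs. Rian followed the same order, at 39.3 CPM [36.5, 42.3], 0.598 CPM [0.241, 1.23] and 262 CPM [253, 271]. Mirg was at 2.62, 0.0855 and 20.3 CPM. Meg3 was thus 10.7-fold [9.54, 12.1] higher in mESCs than in N2a. The intervals of the 3 RNAs did not overlap between lines, although NIH/3T3 rested on 5 UMIs of Meg3, 7 of Rian and 1 of Mirg. The protein-coding genes of the cluster were low. Dlk1, which encodes a transmembrane protein of the Notch ligand family, reached 3.65 CPM in mESCs, 0.334 CPM in N2a and 0 UMIs in NIH/3T3. Rtl1, a retrotransposon-derived gene needed in the placenta, was the exception in its order, with 4.68 CPM in N2a cells, 0.0855 CPM in NIH/3T3 cells and 0 UMIs in mESCs. Rtl1 overlaps Rian on the other strand, and the strand setting of the counting is not given in the sources used here, so the reads of that pair could not be separated. Summed over its 5 genes the cluster stood at 65.1 CPM in N2a cells, 1.20 CPM in NIH/3T3 cells and 480 CPM in mESCs, 7.38-fold [6.93, 7.87] higher in mESCs than in N2a.

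Sequences at the starts of Meg3, Snrpn, Mest and the Peg10-Sgce and Peg3-Usp29 pairs, which differed between lines, are shown as examples from the GRCm39 genome with the GENCODE M39 annotation. Peg10 and Sgce, and Peg3 and Usp29, start head to head, and for these pairs the whole gap between the annotated genes is given, on the plus strand. For Mest, Snrpn and Meg3 the bases just before the start of the canonical transcript are given on the strand of the gene. Capitals mark TGCCGC or its reverse complement GCGGCA, the core letters of the motif that the imprint-keeping protein ZFP57 recognizes when methylated.
Sgce-Peg10 gap, chr6:4747208-4747305: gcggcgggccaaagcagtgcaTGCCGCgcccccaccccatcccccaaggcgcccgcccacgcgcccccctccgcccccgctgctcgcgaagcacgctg
Peg3-Usp29 gap, chr7:6733469-6733576: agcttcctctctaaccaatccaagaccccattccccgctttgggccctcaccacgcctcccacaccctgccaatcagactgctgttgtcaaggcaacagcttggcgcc
Mest, chr6:30737794-30738043, plus strand: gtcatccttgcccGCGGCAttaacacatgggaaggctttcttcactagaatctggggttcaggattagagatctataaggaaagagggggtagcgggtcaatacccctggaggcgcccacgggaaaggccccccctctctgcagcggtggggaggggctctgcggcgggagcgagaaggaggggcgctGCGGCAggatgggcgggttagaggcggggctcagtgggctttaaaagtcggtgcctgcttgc
Snrpn, chr7:59654938-59655187, minus strand: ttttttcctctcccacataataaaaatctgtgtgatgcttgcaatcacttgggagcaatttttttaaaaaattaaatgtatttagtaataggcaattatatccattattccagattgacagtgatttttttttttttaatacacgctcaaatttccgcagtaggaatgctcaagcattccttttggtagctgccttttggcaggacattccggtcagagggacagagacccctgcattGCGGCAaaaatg
Meg3, chr12:109506629-109506876, plus strand: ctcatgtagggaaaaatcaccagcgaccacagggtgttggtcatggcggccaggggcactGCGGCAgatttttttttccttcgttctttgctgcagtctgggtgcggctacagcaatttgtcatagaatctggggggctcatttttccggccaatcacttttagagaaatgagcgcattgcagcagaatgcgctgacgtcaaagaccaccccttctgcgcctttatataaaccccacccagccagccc

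The Sgce-Peg10 gap was short and rich in CpG, with 13 CpG in 98 bases, while the Peg3-Usp29 gap held 3 CpG in 108 bases. The motif stood 2 times in the Mest stretch, 1 time each in the Sgce-Peg10, Snrpn and Meg3 stretches and in none of the Peg3-Usp29 gap. In windows of 250 bases before the canonical start, counted on both strands, it was present in 9 of the 38 imprinted genes and in 7.69% of 32953 annotated genes of the matrices. At least 10 CpG stood in such windows of 23 of the 38 genes and of 34.4% of all genes. These are counts of letters in fixed windows, and the windows of Sgce and Peg10 share bases. The motif itself holds a CpG, so the counts are not independent. The 32953 genes were of all types, and shares among genes of like type or CpG content were not computed. Methylation was not measured.

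The Peg3 cluster on chromosome 7 was highest in N2a. Peg3, a zinc finger gene expressed from the paternal copy, was at 682 CPM [670, 694] in N2a cells, 22.6 CPM [19.9, 25.5] in NIH/3T3 cells and 48.5 CPM [44.7, 52.6] in mESCs. This was 14.1-fold [12.9, 15.3] more in N2a than in mESCs. Usp29, a ubiquitin-specific protease gene that starts across the gap shown above, was at 114 CPM [109, 119] in N2a cells, 0.855 CPM [0.41, 1.57] in NIH/3T3 cells and 3.81 CPM [2.8, 5.07] in mESCs. Both genes of the pair were therefore highest in N2a and lowest in NIH/3T3. Zim1, a neighbouring maternally expressed zinc finger gene, did not pass 0.974 CPM in any line.

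Of the named clusters with more than 1 CPM, the Kcnq1ot1 cluster differed least between lines, with 1.25-fold [1.20, 1.29] between mESCs and N2a. Kcnq1ot1, the paternally expressed noncoding RNA that silences the cluster in cis, was at 381 CPM [372, 390] in N2a cells, 419 CPM [407, 431] in NIH/3T3 cells and 470 CPM [458, 482] in mESCs. The intervals did not overlap, but the BC1 values ran from 328 to 452 CPM in N2a cells, from 338 to 502 CPM in NIH/3T3 cells and from 270 to 575 CPM in mESCs, so the lines overlapped widely at that level. The protein-coding genes of the cluster were low. Phlda2, a regulator of placental growth, reached 4.46 CPM and Cdkn1c, a cyclin-dependent kinase inhibitor, reached 2.191 CPM, both in mESCs, and each had 0 UMIs in NIH/3T3. Cdkn1c overlaps 4933417O13Rik on its own strand, and reads shared by both genes could have been left out of the counting. Slc22a18, an organic cation transporter gene, stayed at or below 1.06 CPM and Ascl2, a transcription factor of the trophoblast, at or below 0.487 CPM. Kcnq1ot1 lies inside Kcnq1 on the other strand, and Kcnq1 was listed at 17.5, 15.9 and 6.49 CPM in N2a, NIH/3T3 and mESCs.

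The Snrpn cluster was carried by Snrpn, which encodes a spliceosomal protein, and Ube3a, a ubiquitin ligase gene expressed from the maternal copy in neurons and from both copies in most other tissues. Snrpn was at 38.4 CPM [35.6, 41.3] in N2a cells, 0.171 CPM [0.0207, 0.618] in NIH/3T3 cells and 54.7 CPM [50.6, 59] in mESCs. Ube3a was at 359 CPM [350, 368], 199 CPM [191, 208] and 263 CPM [254, 272]. Snrpn was thus represented by 2 UMIs in NIH/3T3 cells that held 2331 UMIs of Ube3a. Snhg14, the long noncoding RNA of the cluster that runs across Ube3a on the other strand, was at 183 CPM in N2a cells, 1.28 CPM in NIH/3T3 cells and 37.9 CPM in mESCs. The small intronless genes of the cluster were near 0. Ndn, a MAGE family gene, had 4.38 CPM in mESCs, 0.0557 CPM in N2a and 0 UMIs in NIH/3T3. Magel2, also of the MAGE family, was seen in N2a alone with 25 UMIs, and Peg12 in mESCs alone with 11 UMIs. Mkrn3 lies within another annotated gene on its own strand, Gm32061, as do Igf2 with Gm49394 and Peg13 with Trappc9. Snurf, which overlaps Snrpn, was at 0 in every line. Reads shared by overlapping genes on 1 strand could have been left out of the counting, so these zeros do not show that the transcripts were absent. A count of 0 allowed a level of up to 0.167 CPM in N2a cells, 0.256 CPM in NIH/3T3 cells and 0.243 CPM in mESCs.

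H19 and Igf2, which share an enhancer region on chromosome 7, were hardly seen. H19, a maternally expressed noncoding RNA, had 3 UMIs in N2a cells, 0 in NIH/3T3 cells and 3 in mESCs. Its partner Igf2, a fetal growth factor gene, had none in any line. The receptor that clears this growth factor, Igf2r, was present in each line, at 24.2 CPM [22, 26.6] in N2a cells, 68.5 CPM [63.8, 73.4] in NIH/3T3 cells and 52.3 CPM [48.3, 56.5] in mESCs. Airn, the paternally expressed noncoding RNA that silences Igf2r in cis, had another order, with 500 CPM [489, 510] in N2a cells, 184 CPM [176, 192] in NIH/3T3 cells and 31.98 CPM [28.9, 35.3] in mESCs. The line with the most Airn had the least Igf2r, but with 3 lines no relation was computed. The 2 genes overlap on opposite strands, with the same limit as Rtl1 and Rian.

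Outside the named clusters, several paternally expressed genes were high in N2a and mESCs and nearly absent from NIH/3T3. Mest, which encodes a hydrolase-like protein of the endoplasmic reticulum, was at 626 CPM [614, 637] in N2a cells, 1.71 CPM [1.04, 2.64] in NIH/3T3 cells and 71.5 CPM [66.9, 76.4] in mESCs. Peg10, a retrotransposon-derived gene needed for the placenta, was at 98.4 CPM [93.9, 103], 0.513 CPM [0.188, 1.12] and 103 CPM [97.9, 109]. Its head-to-head neighbour Sgce, which encodes epsilon-sarcoglycan, was at 121 CPM [116, 126], 0.342 CPM [0.0932, 0.876] and 25.7 CPM [23, 28.7]. The Peg10 intervals of N2a and mESCs overlapped, whereas Sgce was higher in N2a. Zdbf2, a zinc finger gene, was at 92.7 CPM [88.3, 97.2], 0.769 CPM [0.352, 1.46] and 212 CPM [204, 220]. Sfmbt2, a Polycomb group gene, was at 228 CPM [221, 235], 0.256 CPM [0.0529, 0.749] and 55.0 CPM [51, 59.3]. Nap1l5, an intronless gene within Herc3, differed in being low in mESCs as well. It was at 29.2 CPM [26.8, 31.9] in N2a cells, 0 UMIs in NIH/3T3 cells and 2.11 CPM [1.38, 3.09] in mESCs. N2a was thus at least 114-fold higher than NIH/3T3 by the limit for 3 counts. Herc3, the host of Nap1l5, was also at 0 UMIs in NIH/3T3, with 39.5 CPM in N2a and 20.3 CPM in mESCs.

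A pair of growth-related genes had the opposite pattern and were nearly absent from N2a. Grb10, an adaptor protein that restrains insulin signalling, was at 0.334 CPM [0.123, 0.727] in N2a cells, 248 CPM [239, 258] in NIH/3T3 cells and 44.6 CPM [40.9, 48.4] in mESCs. NIH/3T3 was 5.58-fold [5.09, 6.12] above mESCs. Plagl1, a zinc finger transcription factor, was at 0.334 CPM [0.123, 0.727] in N2a cells, 39.2 CPM [35.6, 42.9] in NIH/3T3 cells and 123 CPM [117, 129] in mESCs. Each of the 2 genes had 6 UMIs in 2323 N2a cells.

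Another 4 genes were above 20 CPM in every line. Gnas, which encodes the stimulatory G protein alpha subunit, was at 683 CPM [671, 695] in N2a cells, 446 CPM [434, 458] in NIH/3T3 cells and 144 CPM [138, 151] in mESCs. Its antisense partner Gnasas1 was at 51.5 CPM in N2a cells, 0.0855 CPM in NIH/3T3 cells and 49.3 CPM in mESCs. Impact, a regulator of translation under stress, was at 302, 113 and 227 CPM. Trappc9, a subunit of a vesicle trafficking complex, was at 266, 62.1 and 91.8 CPM, and Inpp5f, a phosphoinositide phosphatase gene, at 145, 28.3 and 34.5 CPM. All 4 were highest in N2a. Nnat, a brain gene within Blcap, and Rasgrf1, a guanine nucleotide exchange factor gene, did not pass 1.95 and 0.427 CPM in any line.

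By a rule of size (CPM + 1 at least 4 times that of both other lines), 8 of the 32 imprinted genes with at least 10 UMIs were higher in N2a, where the rule called 4.31% of the 19248 genes with as many UMIs. They were Peg3, Usp29, Mest, Sgce, Sfmbt2, Inpp5f, Nap1l5 and Rtl1. In mESCs 4 were higher (Meg3, Rian, Mirg and Ndn), against 6.03% of all genes, and in NIH/3T3 only Grb10 was, against 3.78%. The rule was also turned round after the values had been seen. Then 8 were at least 4-fold lower in NIH/3T3 than in both other lines, where it called 2.85% of all genes. They were Meg3, Rian, Snrpn, Peg10, Sgce, Mest, Zdbf2 and Sfmbt2. Grb10 and Plagl1 were lower in N2a, against 2.30% of all genes, and Airn was lower in mESCs, against 2.08%. Among the 16 imprinted genes with at least 20 CPM in both N2a and mESCs, 7 were under 2 CPM in NIH/3T3, a limit also set after the values were seen. Over all genes this was so for 116 of 6008, or 1.93%. Genes of 1 cluster share their control, so the 8 are fewer than 8 separate loci.

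**Figure D2:**
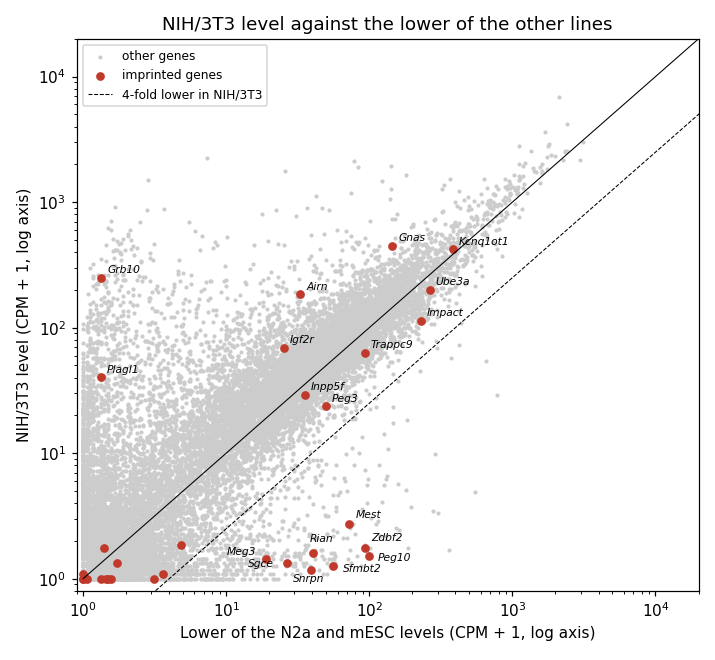
NIH/3T3 level against the lower of the N2a and mESC levels (CPM + 1, log axes) for the 19248 genes with at least 10 UMIs, with the imprinted genes in red. The solid line marks equal levels and the dashed line a level 4-fold lower in NIH/3T3; Meg3, Rian, Snrpn, Peg10, Sgce, Mest, Zdbf2 and Sfmbt2 lie below the dashed line near the bottom edge.

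The few UMIs of these genes in NIH/3T3 were set beside those of genes that mark another line. The 8 genes had in NIH/3T3 0.112% to 0.496% of the level of their highest line, and the 8 mESC markers had there 0.0697% to 0.624% of their mESC level. The 6 N2a markers with a percentage had there 0.113% to 10.2% of their N2a level, with a median of 0.25% and the highest for Ncam1. Grb10 and Plagl1 had in N2a 0.135% and 0.271% of their highest level, and the mESC markers had there 0.0592% to 0.5% of theirs. The 7 NIH/3T3 markers had in N2a 0.0731% to 27.5% of their level, with a median of 0.169% and the highest for Fn1. Ncam1 and Fn1 were well above the other markers. The levels of the 10 imprinted genes lay within the range of the mESC markers. Whether their UMIs came from background or from low transcription was not tested. Airn in mESCs differed, at 6.40% of its N2a level.

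Shares of cells with a UMI were also taken. Every cell was thinned to 1000 UMIs to make depths equal. Mest was then found in 43.9% of N2a [41.9, 46], 0.196% of NIH/3T3 [0.0535, 0.502] and 6.36% of mESC cells [5.37, 7.48]. Without thinning the shares were 87.8%, 0.982% and 27.8%. Peg10 did not follow its levels, with 9.08% of thinned N2a cells [7.95, 10.3] and 6.97% of thinned mESCs [5.93, 8.14] at 98.4 and 103 CPM. Peg3 was found in 48.6%, 2.21% and 4.07% of thinned cells and Kcnq1ot1 in 29.7%, 33.5% and 34.6%. Sgce was found in 10.1% of thinned N2a cells [8.88, 11.4] and in none of 2037 thinned NIH/3T3 cells. By the limit of 3 counts this allows a share of up to 0.147% at that depth. Without thinning Sgce was found in 4 NIH/3T3 cells (0.196%).

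For Mest, Grb10 and Airn the levels kept the order of the lines across the 32 BC1 barcodes of a line. Mest ran from 542 to 714 CPM in N2a and from 44.1 to 132 CPM in mESCs, and did not pass 13.5 CPM in NIH/3T3. Grb10 ran from 177 to 310 CPM in NIH/3T3 and from 21.3 to 85.0 CPM in mESCs. Airn ran from 397 to 655 CPM in N2a cells, from 143 to 253 CPM in NIH/3T3 cells and from 4.80 to 57.6 CPM in mESCs. None of these ranges overlapped between lines. Peg10 ran from 34.3 to 281 CPM in mESCs with a median of 89.8 CPM, and from 58.9 to 148 CPM in N2a, and there the lines overlapped.

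**Figure D3:**
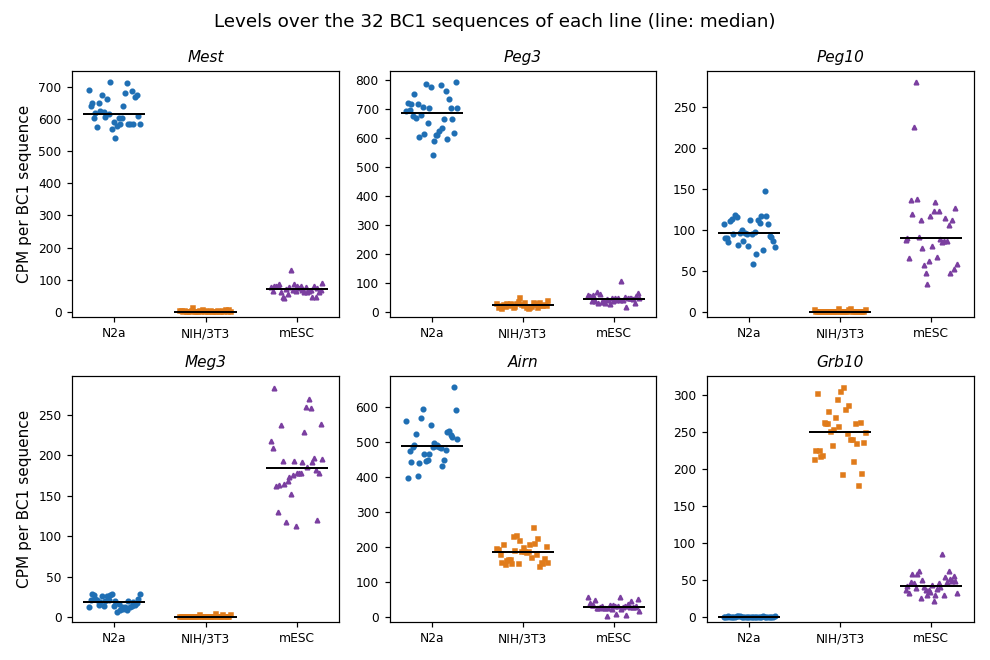
CPM (linear axes from 0) of 6 imprinted genes in the cells of each of the 32 BC1 barcodes of a line, with black lines at the medians. The groups of points are apart for Mest, Airn and Grb10, while for Peg10 the mESC points spread from 34.3 to 281 CPM across the N2a points.

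Cell-to-cell heterogeneity was measured as excess CV2, the variance between cells beyond counting noise and depth, divided by the squared mean, for genes with at least 200 UMIs in a line. A value of 0 is what Poisson counting alone gives and 1 means that levels vary between cells by as much as their mean. In mESCs 8 of 20 imprinted genes were at 1 or above, against 8.05% of all genes. The median was 0.769 for the 20 genes and 0.267 for all 7878 genes, and among genes with under 2000 UMIs it was 1.01 and 0.319. In N2a 3 of 19 were at 1 or above (Zdbf2 at 1.36, Nap1l5 at 1.31 and Peg10 at 1.14), against 5.95% of all genes, and in NIH/3T3 0 of 11 were, against 5.04%. The medians were 0.266 and 0.222 for imprinted and all genes in N2a, and 0.356 and 0.229 in NIH/3T3. No test of these differences was possible with 1 sample of each line.

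The 8 genes in mESCs were Peg10 (5.93), Airn (4.59), Mirg (2.21), Peg3 (2.15), Grb10 (1.92), Sgce (1.76), Sfmbt2 (1.15) and Meg3 (1.00), with Rian just under at 0.935. Meg3 and Mirg lie in 1 cluster, as do Peg10 and Sgce, so these are fewer than 8 separate loci. Single cells weigh heavily in this measure. For Peg3, 1 mESC held 19 of the 598 UMIs and was the only cell with at least 10. Its share at 0 in mESCs with at least 5000 UMIs was 69.0%, against 66.1% by Poisson counting. For Airn, 1 mESC held 12 of 394 UMIs. Values without these cells were not computed. Airn and Grb10 were more even in the lines where they were more abundant, with Airn at 0.248 in N2a and 0.356 in NIH/3T3 and Grb10 at 0.162 in NIH/3T3. Peg3 was at 0.192 in N2a, but also at 0.646 in NIH/3T3, where its level was below that of mESCs. Peg10 differed between mESCs and N2a (1.14) at nearly the same level. In contrast Zdbf2 was more even in mESCs, at 0.216, than in N2a. Ube3a was near 0 in each line, at 0.0854 in N2a cells, 0.108 in NIH/3T3 cells and 0.0805 in mESCs.

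**Figure D4:**
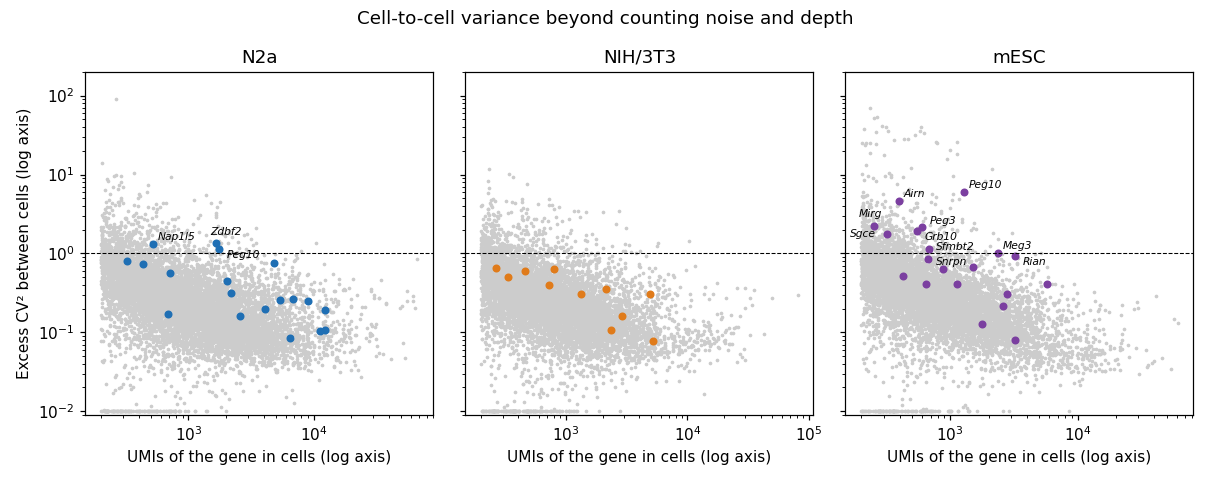
Excess CV2 between cells (log axis, values under 0.01 drawn at 0.01) against the UMIs of a gene (log axis) in each line, for genes with at least 200 UMIs (grey) and imprinted genes (colored), with a dashed line at 1. In mESCs 8 imprinted genes lie on or above the line, led by Peg10 at 5.93 and Airn at 4.59, and in NIH/3T3 none does.

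In single mESCs the RNAs of the Dlk1-Meg3 cluster were unevenly spread. Among the 1020 mESCs with at least 5000 UMIs, 248 cells (24.3%) had no UMI of Meg3, Rian or Mirg, where Poisson counting with each cell's depth gave 33.2 cells (3.25%). At the other end, 135 of 2137 mESCs held at least 10 of these UMIs, against 46.1 by Poisson counting. In N2a cells of that depth, with a lower level of these RNAs, the share at 0 was 58.9% against 54.5%. Excess CV2 in N2a was 0.811 for Meg3 and 0.565 for Rian, above the median of 0.276 for N2a genes with under 2000 UMIs. When each mESC was thinned to 1000 UMIs, 675 of 2137 (31.6%) had at least 1 UMI of the 3 RNAs. Mitochondrial UMIs made up a median of 2.02% in these cells and 2.04% in the others.

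Peg10 and Airn were concentrated in fewer mESCs. Peg10 was at 0 in 62.0% of mESCs with at least 5000 UMIs, against 42.6% by Poisson counting. The 5% of mESCs with the most Peg10 held 53.8% of its UMIs, and the highest cell held 51. In N2a the highest 5% held 35.1% of Peg10 UMIs. Airn was at 0 in 82.1% of the deep mESCs against 75.9%. Deep cells of the other lines also exceeded Poisson counting for Airn, at 7.05% against 1.98% in N2a and 30.6% against 23.7% in NIH/3T3. Kcnq1ot1, although even between lines, was at 0 in 10.3% of deep mESCs against 3.38%. The other lines had a like excess, at 10.0% against 4.41% in N2a and 10.9% against 4.79% in NIH/3T3.

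**Figure D5:**
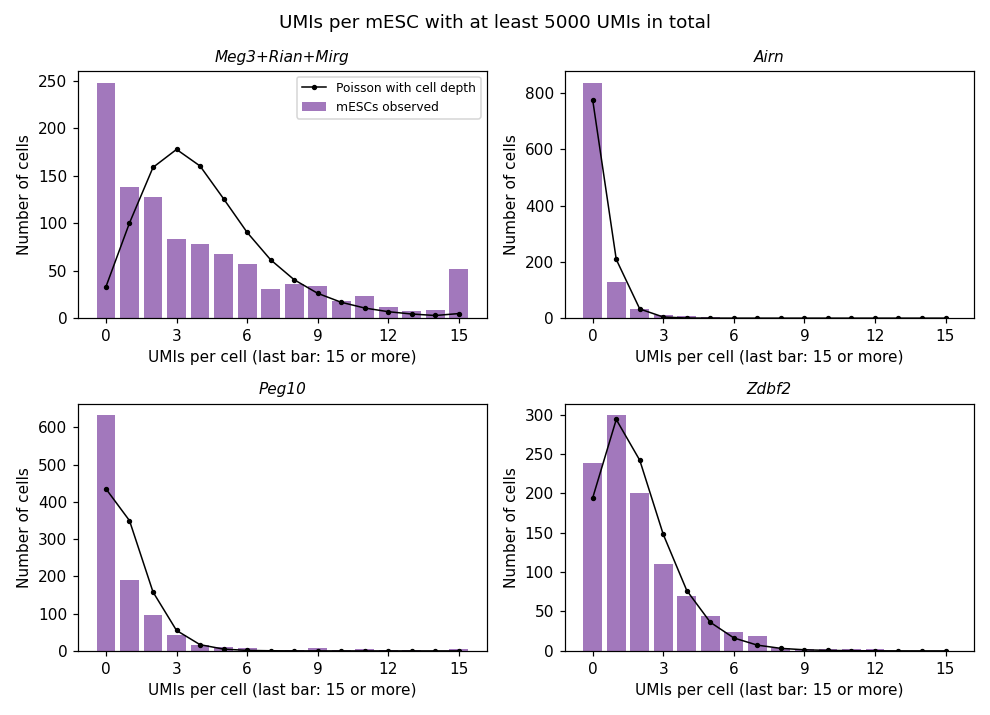
Number of mESCs (bars) by UMIs per cell of Meg3, Rian and Mirg together, of Airn, of Peg10 and of Zdbf2, among the 1020 mESCs with at least 5000 UMIs, with the number from Poisson counting at each cell's depth (black points). For Meg3, Rian and Mirg the bar at 0 stands at 248 cells where the points give 33.2, and the last bar gathers all cells with 15 or more.

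The RNAs of the Dlk1-Meg3 cluster also varied together. After removing depth, the correlation between Meg3 and Rian across 2137 mESCs was 0.48, first among 7877 other genes for either, and the correlation of Rian with Mirg was 0.32. The noncoding RNA B830012L14Rik of the same locus, named after its value was seen, came second for both, at 0.34 with Meg3 and 0.38 with Rian. Its level was 59.3 CPM in mESCs, 5.90 CPM in N2a and 0.0855 CPM in NIH/3T3. Over all 190 pairs of imprinted genes in mESCs the median correlation was 0.01. In N2a, where both RNAs were lower, Meg3 and Rian gave 0.07. These values describe the cells of 1 sample, which share their library. Both genes were seen in 739 mESCs. From the shares of cells within 10 groups of equal depth 565 were expected, an expectation added after the data were seen. A Poisson model of each gene gave 967, but that model also put each gene alone in more cells than were seen. For the head-to-head pairs the correlations were 0.11 for Peg10 and Sgce in mESCs, -0.01 in N2a, and 0.15 for Peg3 and Usp29 in N2a.

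A second list was of other genes reported as imprinted in some mouse tissue or only lying in the same clusters. It held 57 genes of the matrices, 46 of them with at least 10 UMIs. By the same rule of size 5 were higher in N2a (4.31% of all genes), 9 in mESCs (6.03%) and 2 in NIH/3T3 (3.78%). In turn 5 were lower in NIH/3T3 (2.85%), 3 in N2a (2.30%) and 2 in mESCs (2.08%). As shares of the 46 genes these were 10.9%, 19.6% and 4.35% higher and 10.9%, 6.52% and 4.35% lower. In N2a Pde10a, a cyclic nucleotide phosphodiesterase gene, stood at 3762 CPM against 6.57 CPM in mESCs and 18.1 CPM in NIH/3T3. Cntn3, a neural adhesion gene, was at 1612, 5.13 and 6.33 CPM in N2a, NIH/3T3 and mESCs in turn. Xist, the RNA that silences an X chromosome, was at 366, 0.855 and 1.87 CPM in that order. Dcn, a matrix proteoglycan gene, was at 220 CPM in NIH/3T3 against 0.278 CPM in N2a and 0.406 CPM in mESCs. In mESCs Jade1, a chromatin gene, was at 751 CPM against 116 CPM in N2a and 68.0 CPM in NIH/3T3, Ppp1r9a, a neighbour of Peg10, at 179 CPM against 16.9 and 1.20 CPM, and Ddc, a neighbour of Grb10, at 57.1 CPM against 0.835 CPM and 0 UMIs. Of the 5 genes lower in NIH/3T3, Snhg14 beside Snrpn, Herc3 around Nap1l5 and Ppp1r9a beside Peg10 were neighbours of a gene that was low there too. Gnasas1 lies across Gnas, which was not, and Pde4d was at 28.0 CPM there against 775 CPM in N2a and 980 CPM in mESCs. Copg2 was a contrast. It overlaps Mest on the other strand and was at 80.8, 47.8 and 78.2 CPM in N2a, NIH/3T3 and mESCs.

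Of the genes that set, keep or read the parental marks, 32 of 34 in the matrices had at least 10 UMIs. In mESCs 10 of the 32 were at least 4-fold higher than in both other lines, against 6.03% of all genes. Of these 10, Zfp42 was also on the list of mESC markers. Both lists were drawn up with earlier results of these data known, so the count was not independent of them. The 10 included Zfp57, which keeps methylation at imprinting control regions, at 198 CPM against 6.79 CPM in N2a and 15.6 CPM in NIH/3T3. The dioxygenase genes Tet1 and Tet2, which oxidize methylcytosine, were at 1189 and 603 CPM, against 6.74 and 66.4 CPM in N2a and 5.98 and 5.04 CPM in NIH/3T3. The pluripotency zinc finger gene Zfp42 was at 1318 CPM, the KRAB zinc finger gene Zfp568 at 270 CPM, the oocyte gene Ooep at 111 CPM and the de novo methyltransferase gene Dnmt3b at 57.9 CPM. The highest of the other lines was at 1.20, 62.5, 0.513 and 12.1 CPM. None of the 32 was 4-fold higher in N2a or NIH/3T3. In NIH/3T3, 2 were at least 4-fold lower, against 2.85% of all genes. They were Tet2 and the methyltransferase gene Dnmt3a, at 1.71 CPM against 77.6 CPM in N2a and 75.8 CPM in mESCs. Dnmt1, which copies methylation at replication, was at 163, 189 and 226 CPM in N2a, NIH/3T3 and mESCs, and Zfp445, which acts beside Zfp57, at 88.7, 84.6 and 83.3 CPM.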

How the data were processed

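The deposited values were raw UMI counts per gene and barcode, 1 matrix for each line and 1 pooled matrix of the same reads. The authors split reads by BC1 with CapMux, aligned them to GRCm39 with GENCODE M30 and kept every possible barcode. Feature, strand and multimapping settings are not given in the sources used here. Cells needed 1000 UMIs or more and no more than 20% of mitochondrial UMIs, as in the study. Counts were summed over cells (CPM), with exact Poisson and binomial (Clopper-Pearson) intervals of 95%, computed with Python 3.11.15, numpy 2.4.6, scipy 1.17.1 and pandas 2.3.3. A count of 0 was given the limit of 3 counts. UMIs counted molecules, so intervals and limits cover counting error only. With 1 sample of each line no test or p-value was used. Fold rules used CPM + 1 over genes with at least 10 UMIs. The steps were tested on simulated data. Every member was given, with full values where it reached 20 CPM, and at most 8 genes of each added list were named by their CPM among those that reached 20 CPM and were 4-fold higher in a line; the other named genes of these lists were chosen after their values were seen. Of 33565 gene identifiers, 32953 were in GENCODE M39. The members were set by symbol, and the members, lists and thresholds were drawn up with earlier results of these data known.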

Additional observations from a re-analysis of the deposited data

How the results depend on the processing

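The 4 cluster ratios that were recomputed (Dlk1-Meg3, Peg3, Kcnq1ot1 and Snrpn) kept their direction under each of 7 alternatives of cells, scaling or matrix, and no level of 20 CPM or more moved by over 1.5-fold. Counts moved with the fold and the pseudocount. At 2-fold, 13 imprinted genes were lower in NIH/3T3, 9 higher in mESCs and 2 lower in mESCs. At 10-fold, 2 were higher in N2a, 1 in mESCs and 0 in NIH/3T3, and 0 were lower in mESCs. With a pseudocount of 0.1 CPM, 15 were lower in NIH/3T3 and 8 higher in mESCs. Excess CV2 of at least 0.5 was reached by 7 N2a genes, 4 NIH/3T3 genes and 13 mESC genes, and of at least 2 by 0 in N2a and 4 in mESCs. With at least 500 UMIs per gene, 5 genes in mESCs were at 1 or above, since fewer were measured. Meg3 and Rian were seen together in 0.76 times the number of cells from a Poisson model and 1.31 times the number from their shares of cells at equal depth, so the direction depended on the expectation. No paired analysis was possible because each line was 1 sample and the result comes from no test. Leaving out a replicate was not possible. Genes under 200 UMIs in a line were too shallow for a dispersion, and levels under 2 CPM rested on few UMIs.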
